A study of Homo sapiens with 6 samples.

Results

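Basement membrane components and integrins were read out as 44 genes, chosen by symbol from the array's gene names: 6 collagen IV chains, 10 laminin chains, 8 other basement membrane genes and 20 integrin subunits. They had 79 of the 45033 array features and were 44 of 23593 named genes. For the 25 members with several features, the feature whose mean log2 intensity was highest stood for the gene. The samples were HCC-LM3 cells, an established human hepatocellular carcinoma line known for metastasis in xenografts. The control group (shNon) carried a lentiviral control shRNA, and the knockdown group (shASPP2) a lentiviral shRNA against ASPP2, the product of TP53BP2. Both groups were grown in serum-containing medium and kept for a week after infection, and the labels number 3 samples in each. The sample titles do not say whether these were separate cultures or infections. NimbleGen arrays in 1 colour were used, 1 for each sample, and values are RMA intensities on a linear scale unless a log2 difference is named.

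A basement membrane is a thin sheet of matrix under epithelial and endothelial cells. Laminins, trimers of an alpha, a beta and a gamma chain, and collagen IV form separate networks in it, and nidogens and the proteoglycan perlecan link them. Cells hold on to this sheet through integrins, receptors of 1 alpha and 1 beta subunit, and through dystroglycan. In normal liver the sinusoids lack a continuous basement membrane, while bile ducts and vessels have one, and carcinoma cells of the liver commonly express laminins and laminin receptors.

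Of the 44 genes, 1 passed an adjusted p of 0.05 in limma, and its call was lost when any single array was left out. COL4A2, the alpha2 chain of collagen IV, rose from 38.3 ± 4.95 in shNon to 144 ± 22.0 in shASPP2 (SD, n = 3). The other 43 did not pass an adjusted p of 0.05 in limma, which was adjusted over all 23593 genes. Not passing does not show that a gene was unchanged. Over all genes 24 passed, 0.102% of those tested, with 10 higher (0.0424%) and 14 lower (0.0593%), and after median centring of each array 9 were higher and 20 lower. The groups' arrays did not overlap for 7 members (15.9%), 3 higher and 4 lower in shASPP2, where the share of all genes was 18.8%, 9.3% higher and 9.52% lower. An unadjusted p under 0.05 was also reached by 7 members (15.9%), and by 11.5% of all genes. The median log2 difference of the members was 0.04, beside 0.01 over all genes, and their median size of change was 0.22 log2, beside 0.24 over all genes. Leaving out an array cannot lower the count without overlap, so each such count is given beside the share of all genes in the same fit. Without shNon array 2 it was 21 of 44 members (47.7%), 13 higher and 8 lower, beside 31.4% of all genes. In that fit 10 members (22.7%) had an unadjusted p under 0.05, beside 13.2% of all genes. Leaving out shNon array 3 gave 13 members (29.5%), beside 30.1% of all genes. With shASPP2 array 1 left out there were 11 (25%), and with shASPP2 array 2 left out 12 (27.3%), beside 28.3% of all genes each time.

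The signal of 2508 random-sequence probes gave the level of unspecific hybridisation, 32.6 ± 0.752 in shNon and 30.6 ± 0.170 in shASPP2 (SD, n = 3). A gene was taken as dim in a group where its mean lay under 2 times that level (65.1 in shNon and 61.2 in shASPP2). By this mark 26 members were above the level in both groups, 2 in shNon only, 3 in shASPP2 only and 13 in neither. Those 13 had group means between 29.9 and 53.7, so their fold changes carry little information. Of the features that did not stand for a member, 19 were above the level in both groups. The log2 difference of 14 of these 19 had the sign of the feature used. The arrays had median intensities from 111 to 122, and the members' log2 values were more variable in shNon (median SD 0.32) than in shASPP2 (0.17). The same held over all features (0.31 in shNon and 0.23 in shASPP2). TP53BP2, the knocked-down gene, was at 424 ± 82.0 in shNon and 197 ± 43.5 in shASPP2, and its groups did not overlap (log2 difference -1.11, limma adjusted p = 0.204). Of 8 hepatocyte markers, 3 (ALB, TF and HNF4A) were above the mark in both groups, AFP in shASPP2 only, and TTR, SERPINA1, APOA1 and APOB in neither, so several defining hepatocyte transcripts did not stand clear of unspecific signal.

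The collagen IV genes lie in 3 pairs, each transcribed outwards from a shared start region. In RefSeq (GRCh38.p14) the start sites of COL4A1 and COL4A2 are 127 bases apart, those of COL4A3 and COL4A4 419 bases and those of COL4A5 and COL4A6 380 bases. COL4A6 has 2 windows, and the start nearer to COL4A5 was taken. The COL4A6 feature used ends at 107568316 on hg18 and another at 107569383, so the nearer start need not be that of the feature used. The promoter windows of COL4A1 and COL4A2, each running from 250 bases before to 50 bases after the start, are shown because these 2 genes share 226 of the 300 bases and COL4A2 is the member that passed the test. The COL4A1 window is chr13:110307108-110307407 on the minus strand, and the COL4A2 window is chr13:110307034-110307333 on the plus strand. Capitals mark the GC box (GGGCGG, or CCGCCC on the other strand) and the CCAAT box (CCAAT, or ATTGG on the other strand).
COL4A1: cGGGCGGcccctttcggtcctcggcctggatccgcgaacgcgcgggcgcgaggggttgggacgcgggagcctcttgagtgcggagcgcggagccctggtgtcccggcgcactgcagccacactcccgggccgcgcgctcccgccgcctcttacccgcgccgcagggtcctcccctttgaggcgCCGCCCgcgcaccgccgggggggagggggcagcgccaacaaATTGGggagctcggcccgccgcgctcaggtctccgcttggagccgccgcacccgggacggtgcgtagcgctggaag
COL4A2: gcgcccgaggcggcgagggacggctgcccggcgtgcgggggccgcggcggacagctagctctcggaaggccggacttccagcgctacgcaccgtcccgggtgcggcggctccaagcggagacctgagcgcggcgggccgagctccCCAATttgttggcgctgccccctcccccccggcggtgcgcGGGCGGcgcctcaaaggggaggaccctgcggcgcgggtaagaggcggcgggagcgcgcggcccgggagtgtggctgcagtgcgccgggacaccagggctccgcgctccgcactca

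The shared stretch is the same DNA read from opposite strands, and it holds 1 CCAAT box and 1 GC box. The CCAAT box lies 105 bases before the COL4A2 start on its coding strand, and the GC box 65 bases before it. The COL4A1 window has a further GC box at its far end, outside the shared stretch. On either strand, the GC box was found in 45% and the CCAAT box in 34.6% of the 35116 promoter windows of this length, and the 2 motifs did not overlap here. The TATA box (TATAAA), the AP-1 element (TGANTCA) and a SMAD-type element (CAGACA) had no match in either window, against 11.5%, 7.71% and 16.9% of all windows. G and C made up 76.7% of the COL4A1 window and 77.7% of the COL4A2 window, and the median over all windows was 58.7%. These are matches of letters only, and binding was not measured.

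COL4A2 (chromosome 13, 109757631 to 109963375 on hg18, the build of the array's design) had intensities of 43.8, 34.3 and 36.6 on the shNon arrays and 140, 167 and 124 on the shASPP2 arrays. All 3 shNon values were near the random-probe level, and all 3 shASPP2 values were above 2 times that level, with no overlap. The log2 difference was 1.90 (SE 0.196, 95% interval 1.44 to 2.37, limma adjusted p = 0.0310), a ratio of 3.74. Since the control level was dim, the rise was also computed with each control array held at 2 times its random-probe level. This gave 2.19-fold, a point estimate that allows for the dim control but not for the spread between arrays. The exact permutation test over arrays gave p = 0.1 (two-sided), the smallest value 3 against 3 arrays allow. The gene has 1 feature of 3 probes, so no second feature could be compared with it. The log2 difference stayed between 1.79 and 2.01 when any single array was left out, but the call was lost in each of these 6 fits (limma adjusted p from 0.0843 to 0.264) and with a replicate block (0.347).

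COL4A1 (chromosome 13, 109599310 to 109757459 on hg18) encodes the alpha1 chain, which joins with alpha2 in the most widespread collagen IV trimer. Its intensities were 42.8, 28.9 and 41.0 in shNon and 24.2, 29.2 and 37.7 in shASPP2. The groups overlapped at the random-probe level, with a log2 difference of -0.31 (95% interval -0.89 to 0.27, limma adjusted p = 0.663). COL4A1 also has a single feature, and whether its probes respond to the transcript was not tested.

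**Figure D1:**
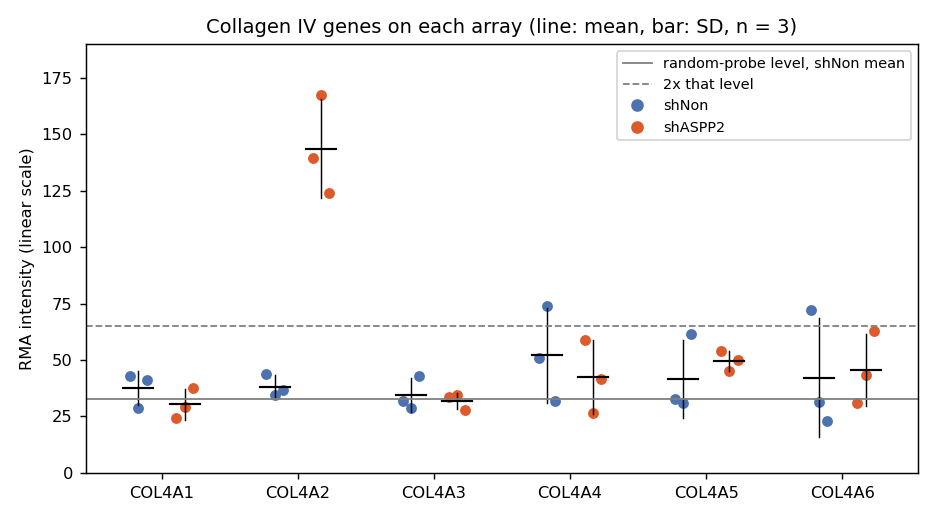
RMA intensity (linear axis) of the 6 collagen IV genes on each array, shNon and shASPP2, with the mean as a line, the SD as a bar (n = 3) and the random-probe level and 2 times that level as grey lines. COL4A2 in shASPP2, between 124 and 167, is the only gene and group that stands clear of the upper grey line; the other 5 genes have group means between 30.4 and 52.2.

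The other collagen IV chains, alpha3 to alpha6, belong to more specialised basement membranes such as those of kidney, lung and smooth muscle. COL4A3 was at 34.6 ± 7.60 in shNon and 32.0 ± 3.58 in shASPP2, and COL4A4 at 52.2 ± 21.1 and 42.3 ± 16.3. COL4A5 was at 41.6 ± 17.2 and 49.7 ± 4.51, and COL4A6 at 42.2 ± 26.3 and 45.7 ± 16.0 (SD, n = 3 throughout). All 4 were dim in both groups, and in each the groups overlapped. Single arrays reached above the mark, COL4A4 with 73.8 on shNon array 2 and COL4A6 with 72.1 on shNon array 1 and 62.8 on shASPP2 array 3. The 4 had limma adjusted p-values of 0.895, 0.807, 0.700 and 0.874, in the order of the chains. COL4A3 and COL4A5 have 1 further feature each and COL4A6 has 3, and all 5 of these were dim as well.

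Laminins were largely present. Of 10 chains, 8 were above the mark in both groups and none passed in limma. None had groups that did not overlap (18.8% of all genes), and 1 had an unadjusted p under 0.05 (11.5% of all genes). The median log2 difference was -0.02. LAMA3 and LAMB3 encode the alpha3 and beta3 chains of the epithelial laminin of hemidesmosomes. LAMA3 was measured at 8177, 7723 and 9039 in shNon and at 9724, 8949 and 9413 in shASPP2, with a log2 difference of 0.17 (95% interval -0.21 to 0.56, limma adjusted p = 0.719). LAMB3 was at 3226, 2858 and 3385 in shNon and at 2719, 3481 and 2968 in shASPP2, and its 95% interval of the log2 difference was -0.48 to 0.37. Both genes overlapped between the groups, and both intervals exclude a 2-fold change in either direction.

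LAMB1 and LAMC1 encode the beta1 and gamma1 chains found in many laminins. LAMB1 was at 4817 ± 538 in shNon and 4379 ± 287 in shASPP2 (95% interval of the log2 difference -0.54 to 0.27). LAMC1 was at 3199 ± 573 and 3021 ± 149 (-0.52 to 0.38). A second LAMC1 feature had non-overlapping groups, with 2388, 2896 and 2989 in shNon and 2240, 1792 and 2021 in shASPP2 (log2 difference -0.45, limma adjusted p over features = 0.428), and the remaining feature was dim. The LAMC1 features thus give different pictures, and none passed the test. LAMB2, the beta2 chain, was at 543 ± 130 and 566 ± 3.07, and LAMC3, the gamma3 chain, was dim in both groups.

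Among the alpha chains that pair with these, LAMA5 was at 463 ± 64.7 in shNon and 468 ± 51.7 in shASPP2 (95% interval of the log2 difference -0.42 to 0.46). LAMA4 was at 433 ± 78.6 and 343 ± 35.7, a log2 difference of -0.32 (limma adjusted p = 0.579), but averaged over its 4 features the difference was 0.01. LAMA2, a chain typical of muscle, was at 81.1 ± 55.6 and 80.3 ± 24.1, with 144 on shNon array 2 against 39.1 and 59.9 on the other control arrays. LAMA1, the chain of embryonic basement membranes, was at 32.7, 81.7 and 40.3 in shNon and at 114, 86.1 and 72.6 in shASPP2. The LAMA1 groups overlapped through shNon array 2, the control was dim, and the log2 difference of 0.91 (SE 0.365) had a limma adjusted p of 0.413. The second LAMA1 feature, dim in both groups, had -0.35.

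Of the linkers and proteoglycans, NID1 was lower and its groups did not overlap, but it did not pass. NID1 (chromosome 1, 234206733 to 234303706 on hg18) encodes nidogen-1, which bridges laminin and collagen IV. It was at 5659, 6028 and 6607 in shNon and at 4045, 4904 and 4359 in shASPP2. Every shASPP2 array lay below every shNon array, and the log2 difference was -0.46 (SE 0.172, 95% interval -0.87 to -0.06, limma adjusted p = 0.385; p = 0.1 by exact two-sided permutation, its least value). Its second feature went from 2420, 2706 and 2681 to 1783, 1468 and 1598, again without overlap (-0.69, limma adjusted p over features = 0.238). NID2, the related nidogen-2, was under the mark on 5 arrays and at 145 on shNon array 3.

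HSPG2, which encodes perlecan, was at 1823 ± 521 in shNon and 1538 ± 52.9 in shASPP2, and the control arrays ranged from 1293 to 2336. AGRN, encoding the proteoglycan agrin, was at 2365 ± 114 and 2439 ± 239 (95% interval of the log2 difference -0.35 to 0.43). DAG1, encoding dystroglycan, a laminin and agrin receptor, was at 3261 ± 471 and 2987 ± 264 (-0.56 to 0.32). COL18A1, the source of endostatin, was at 649 ± 170 and 733 ± 92.3. In all 4 the groups overlapped. The second features of DAG1 and COL18A1, above the mark in both groups, overlapped as well but had the opposite sign. Their log2 differences were 0.18 for DAG1, against -0.12, and -0.32 for COL18A1, against 0.20. The second HSPG2 feature had the same sign as the first (-0.24 and -0.20). SPARC, a collagen-binding matrix protein, did not overlap between groups but was dim in both, at 32.5 ± 5.04 and 50.6 ± 6.86, and its second feature had the opposite sign.

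Of the 20 integrin genes none passed in limma. The groups did not overlap for 4 (20%), 1 higher and 3 lower, beside 18.8% of all genes. An unadjusted p under 0.05 was reached by 3 (11.5% of all genes). The median log2 difference was 0.11, and 12 of the 20 were above the mark in both groups. ITGA4, ITGA1, ITGA8, ITGA10, ITGB3 and ITGB8 were dim in both groups, and their values are not read as levels of expression.

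Of the 12 integrin genes above the mark in both groups, only ITGB4, lower, and ITGA6, higher, had groups that did not overlap. Among the 13877 genes left after removing dim features, 23.9% did not overlap in either direction, so this count does not set these integrins apart. Together the ITGB4 and ITGA6 subunits form a laminin receptor. ITGB4 (chromosome 17, 71229110 to 71265494 on hg18) encodes the beta4 subunit, which ties hemidesmosomes to keratin filaments and pairs with alpha6 alone. It was at 5698, 6282 and 6213 in shNon and at 3471, 4069 and 4139 in shASPP2. All shASPP2 arrays were below all shNon arrays, with 64.1% of the control signal left (log2 difference -0.64, SE 0.168, 95% interval -1.04 to -0.25, limma adjusted p = 0.252; p = 0.1 by exact two-sided permutation, its least value). The other 2 features of ITGB4 were lower in shASPP2 as well, without overlap, by log2 differences of -0.70 and -0.78 (limma adjusted p over features 0.253 and 0.325). In limma with trend and robust variance, ITGB4 had an adjusted p of 0.00625 and was 1 of 2 members past the threshold, with COL4A2, where 2.14% of all genes were.

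ITGA6 (chromosome 2, 173000615 to 173079251 on hg18), the alpha6 subunit, pairs with beta4 or beta1. It was at 1307, 1305 and 1421 in shNon and at 1777, 1573 and 1815 in shASPP2. Here all shASPP2 arrays were above all shNon arrays, and the log2 difference was 0.36 (SE 0.163, 95% interval -0.03 to 0.74, limma adjusted p = 0.472; p = 0.1 by exact two-sided permutation).

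**Figure D2:**
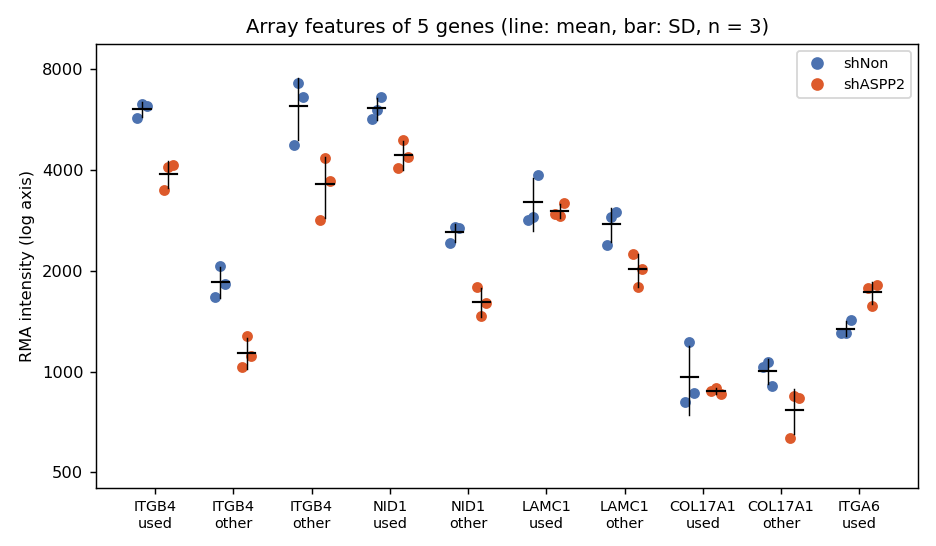
RMA intensity (log axis) on each array for every feature above 2 times the random-probe level of ITGB4, NID1, LAMC1, COL17A1 and ITGA6, with the mean as a line and the SD as a bar (n = 3 per group). All 3 ITGB4 and both NID1 features are lower on every shASPP2 array than on any shNon array, ITGA6 is higher, and for LAMC1 and COL17A1 this separation is seen on 1 of the 2 features drawn.

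COL17A1, the transmembrane collagen of hemidesmosomes, was at 810, 1227 and 863 in shNon and at 872, 891 and 858 in shASPP2. The groups overlapped on this feature, while its second feature had 1034, 1068 and 907 in shNon and 633, 845 and 831 in shASPP2 without overlap (log2 difference -0.39, limma adjusted p over features = 0.501). Among other hemidesmosome genes, chosen after the data were seen, log2 differences were 0.31 (limma adjusted p = 0.682) for PLEC, which encodes plectin, 0.27 (0.610) for DST, the gene of the hemidesmosomal plakin, and 0.27 (0.623) for the tetraspanin CD151. None passed, and each of these 3 overlapped between the groups.

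The other laminin-binding alpha subunits gave little. ITGA3, the alpha3 subunit, was at 2049 ± 557 in shNon and 2013 ± 390 in shASPP2 (95% interval of the log2 difference -0.65 to 0.64). Its other features had log2 differences of 0.14 and 0.34, with overlapping groups. ITGA7, a muscle-type laminin receptor subunit, was at 98.6, 58.0 and 63.7 in shNon and at 49.3, 46.3 and 54.6 in shASPP2. The ITGA7 groups did not overlap, but all shASPP2 arrays and 2 of the shNon arrays were under the mark, and the log2 difference of -0.52 (SE 0.240) had a limma adjusted p of 0.476.

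Among the collagen receptors, ITGA2, the alpha2 subunit, had the largest log2 difference of those above the mark, without passing. It was at 841, 1327 and 873 in shNon and at 1879, 1218 and 1740 in shASPP2. The groups overlapped because shNon array 2 was above shASPP2 array 2 (log2 difference 0.68, SE 0.263, 95% interval 0.06 to 1.30, limma adjusted p = 0.400). ITGA11, a collagen receptor subunit of mesenchymal cells, was at 252 ± 43.3 and 346 ± 71.9 (log2 difference 0.45, limma adjusted p = 0.502). Its second feature, at 0.07, showed less. ITGA1 and ITGA10, the remaining collagen-binding subunits, were dim.

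The alpha subunits that read the RGD motif of fibronectin and vitronectin had small differences. ITGA5, the fibronectin receptor subunit, was at 4219 ± 546 in shNon and 5244 ± 555 in shASPP2 (log2 difference 0.32, 95% interval -0.12 to 0.75, limma adjusted p = 0.562). ITGAV was at 2470, 2430 and 2645 in shNon and at 2809, 2623 and 2666 in shASPP2, and its interval was -0.27 to 0.47. Outside this group of alpha subunits, ITGA9 lay around the mark, at 61.1 ± 28.2 and 69.0 ± 16.7. ITGA4, a subunit of leukocyte receptors, was lower without overlap but dim in both groups, at 53.7 ± 9.21 and 33.6 ± 2.57. Its second feature, also dim, overlapped between the groups (log2 difference 0.06).

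ITGB1, the beta subunit shared by most matrix receptors, was at 13148, 14917 and 14057 in shNon and at 19885, 14045 and 14872 in shASPP2. The highest value was that of shASPP2 array 1, and the log2 difference of 0.20 (95% interval -0.27 to 0.66, limma adjusted p = 0.735) was 0.04 without that array. A second ITGB1 feature had non-overlapping groups, with 6534, 5603 and 7011 in shNon and 9702, 7698 and 7210 in shASPP2 (log2 difference 0.36, limma adjusted p over features = 0.546). The remaining 2 features overlapped, with log2 differences of 0.11 and 0.36, and none of the 4 passed the test. ITGB5, a partner of alphaV, was at 4846 ± 364 and 4943 ± 307 (-0.36 to 0.42). ITGB6, another alphaV partner found on epithelia, was close to the mark at 73.4 ± 21.1 and 91.3 ± 14.2, and ITGB7, a leukocyte subunit, was at 182 ± 51.1 and 195 ± 39.4. On the features that stood for these 4 genes the groups overlapped.

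ITGB2, the beta subunit of leukocyte integrins, had the largest SE of all members. It was at 74.4, 204 and 48.1 in shNon and at 225, 84.2 and 368 in shASPP2, so the groups overlapped (log2 difference 1.09, SE 0.676, limma adjusted p = 0.584), and its second feature was dim in both groups with -0.07. Of 7 leukocyte markers, CD68 and ITGAM were above the mark in both groups, and PTPRC, CD3E, CD14, CSF1R and CD4 in neither. Their summed intensity was 2983 to 4042 in shNon and 3928 to 4510 in shASPP2, most of it CD68. Of 10 fibroblast and stellate markers, 4 were above the mark in both groups, with sums of 599 to 822 in shNon and 709 to 868 in shASPP2. Of 8 endothelial markers, PECAM1 was above the mark in both groups, CDH5 in shNon only, and VWF, KDR, TEK, TIE1, CLDN5 and ERG in neither. Their sum was 2111 to 2268 in shNon and 1107 to 1338 in shASPP2, which was mainly PECAM1 (log2 difference -0.96, limma adjusted p = 0.157). The part of such markers in the integrin and collagen values was not tested.

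**Figure D3:**
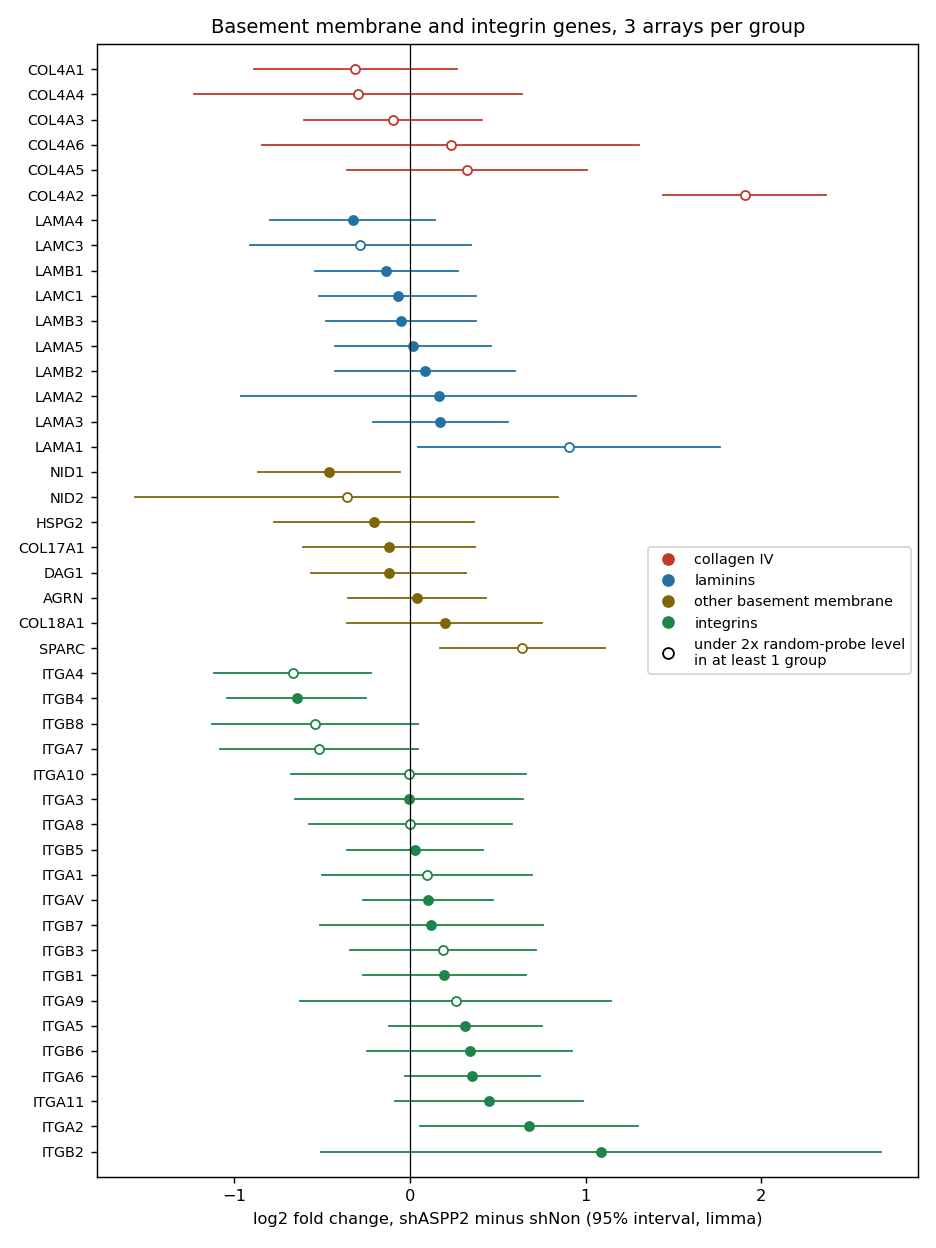
Log2 difference, shASPP2 minus shNon, with its 95% interval from limma for all 44 genes, coloured by class, with 3 arrays per group; open circles mark genes under 2 times the random-probe level in at least 1 group. COL4A2, at 1.90, stands apart; most other intervals include 0, and those of ITGB4, NID1, ITGA4, SPARC, LAMA1 and ITGA2 do not, although none of the 6 passed after adjustment over all genes.

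Genes around this system were read from 4 lists. Of 23 further matrix ligands none passed in limma, and 3 had an unadjusted p under 0.05 (11.5% of all genes). Their groups did not overlap for 4 higher and 2 lower (9.3% and 9.52% of all genes), with a median log2 difference of 0.10. The smallest p-values were those of COL6A3, a collagen VI chain, from 68.9 ± 17.7 to 137 ± 8.74 (1.02, limma adjusted p = 0.196), and of NTN1, netrin-1, dim in shNon (0.90, adjusted p = 0.320). FN1, fibronectin, the ligand of the ITGA5 receptor, was at 28198, 31513 and 28437 in shNon and at 24975, 22689 and 22997 in shASPP2. Its groups did not overlap (log2 difference -0.32, limma adjusted p = 0.505), and it was named after its values were seen.

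Of 17 enzymes and chaperones of collagen and basement membrane assembly none passed in limma, 3 had an unadjusted p under 0.05 (11.5% of all genes), and the groups did not overlap for 2 higher and 3 lower (9.3% and 9.52% of all genes), with a median of 0.02 log2. SERPINH1, the collagen chaperone of the endoplasmic reticulum, was at 4577 ± 843 in shNon and 8113 ± 1091 in shASPP2 (log2 difference 0.83, limma adjusted p = 0.238). PLOD2, a lysyl hydroxylase, was at 1787 ± 51.1 and 2840 ± 485 (0.65, adjusted p = 0.287). PXDN, peroxidasin, which crosslinks collagen IV, was near the mark at 87.7 ± 26.0 and 62.2 ± 13.0. Of 5 genes that attach the laminin-binding sugars of dystroglycan none passed in limma and the median was 0.01 log2. An unadjusted p under 0.05 was reached by 1 (11.5% of all genes). POMT2, an O-mannosyltransferase, had a log2 difference of 0.77 (limma adjusted p = 0.302), with groups that did not overlap. B4GAT1, a glucuronyltransferase, had 0.26 (limma adjusted p = 0.893), with overlapping groups.

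Of 25 integrin adaptors and focal adhesion genes none passed in limma, and 5 had an unadjusted p under 0.05 (11.5% of all genes). The groups did not overlap for 6 of them (24%), all higher in shASPP2, where 9.3% of all genes were higher without overlap. Of the 25, 23 were above the mark in both groups. Among the 13877 genes left after removing dim features, 23.9% did not overlap in either direction and 16.7% had an unadjusted p under 0.05. The list's median log2 difference was 0.27, beside 0.01 over all genes and 0.045 over those 13877. The smallest p-values were those of GIT1, a scaffold of adhesion turnover, from 605 ± 130 to 1233 ± 287 (1.03, limma adjusted p = 0.223), and ACTN4, an actin crosslinker, from 4210 ± 377 to 7038 ± 1021 (0.73, adjusted p = 0.252). Outside the rule for named genes, VCL (vinculin) had 0.53, ACTN1 0.55, ZYX (zyxin) 0.41 and LIMS1 (PINCH) 0.37. Values below 0, all with overlapping groups, included TLN1 (talin) at -0.34, ILK at -0.20 and PTK2 (focal adhesion kinase) at -0.07.

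**Figure D4:**
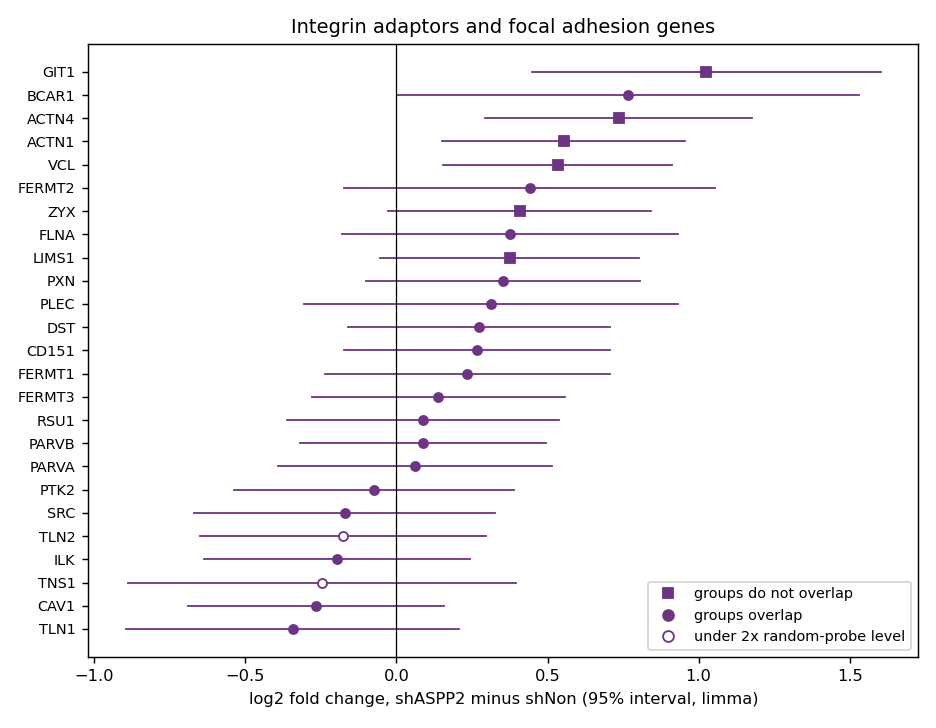
Log2 difference, shASPP2 minus shNon, with its 95% interval from limma for 25 integrin adaptor and focal adhesion genes (3 arrays per group); squares mark genes whose groups do not overlap and open circles genes under 2 times the random-probe level. The 6 squares, GIT1, ACTN4, ACTN1, VCL, ZYX and LIMS1, all lie above 0, and none passed after adjustment over all genes.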

How the data were processed

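RNA of 6 samples was measured, 1 array each. The authors deposited 1 linear-scale intensity per feature, computed by RMA according to the submitters' processing notes. The sources used here do not give the settings of RMA, scan dates or slides. RMA can pull dim features towards a floor, which can make their fold changes too small. This was not tested here. The value table held the same intensities (0 differing cells). Symbols were updated by gene identifier through RefSeq (GRCh38.p14), and all 44 members kept theirs. Log2 intensities were fitted with limma 3.58.1 in R 4.3.3 (group as the only term, eBayes without trend), with Benjamini-Hochberg adjustment over all 23593 genes. The number of arrays, 3 per group, limits the precision. Errors are SDs, or limma's SE for log2 differences. The fit was tested on simulated data. Members and lists were chosen with earlier results of these data known. Full values are given for members past the threshold and for members without overlap above 2 times the random-probe level. The collagen IV genes and the 2 genes with the smallest p of each pathway list are given too. Other members are given by levels, log2 differences or 95% intervals. Of the 44 members, 35 had a RefSeq promoter window. Some genes of the lists are not reported here, and counts are over the others. Alternatives were median centring, cyclic loess, array weights, removal of dim features, variance estimation with trend and robust options, a replicate block, the mean of a gene's features, the value table and leaving out each array.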

Additional observations from a re-analysis of the deposited data

How the results depend on the processing

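COL4A2 kept its direction in all 14 alternatives, with log2 differences from 1.79 to 2.01 when an array was left out. It passed in 7, with a limma adjusted p of 0.00831 with trend and robust variance. Among the 7 are the value table, which held the same intensities, and averaged features, which leave a gene with 1 feature at the same values. COL4A2 did not pass when any 1 array was left out (0.0843 to 0.264), where fits have fewer samples, or with the replicate block (1.90, adjusted p = 0.347). Members past the threshold numbered 2 with trend and robust variance, 0 with the replicate block (4 at an unadjusted p under 0.05) and 0 without any array (4 to 10). Genes past the threshold numbered 130 after removing dim features, 506 with trend and robust variance, 40 with averaged features, 0 with the replicate block (2208 at an unadjusted p under 0.05) and 0 to 6 without single arrays (1686 to 3106). Members without overlap numbered 4 after removing dim features, 14.3% of the 28 members left, beside 23.9% of all genes left. They numbered 9 to 21 without single arrays (25.3% to 31.4% of all genes), and leaving out an array cannot lower this count. The 21 were without shNon array 2, 47.7% of the members beside 31.4% of all genes. The collagen IV median was 1.90 after removing dim features, which left COL4A2 alone. LAMA4 turned to 0.0106 with averaged features. ITGB4 passed with trend and robust variance and in no other alternative. Same-numbered arrays did not deviate together (correlations 0.08, -0.10 and -0.14), so the replicate number was not treated as a pairing. For the 20 members whose log2 difference was larger than its SE, 264 of 273 values kept direction and side of the threshold. That choice makes a reversal unlikely, and only COL4A2 among the 20 had passed, so for the others the same side means not passing again. The rest were 7 lost calls, all of COL4A2, 1 gained call, of ITGB4, and 1 reversal, of LAMA4. Signal over background limits the 18 members dim in at least 1 group.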
